A study of Mus musculus with 6 samples.

Results

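Vesicle traffic and endocytosis genes were examined in lymphatic endothelial cells, the cells that line lymph vessels, sorted from mouse meninges. The genes were chosen by symbol: the Rab GTPases and their TBC regulators (Tbc1d), sorting nexins (Snx), Vps proteins, syntaxins (Stx), Vamp proteins, Sec proteins, exocyst (Exoc), coatomer (Cop), adaptor complexes (Ap1 to Ap5), dynamins (Dnm), caveolins and cavins, and Ehd ATPases. This choice was made with earlier results of these data known. Of the 4233 genes in the deposited table, 78 carried such a symbol, and all 78 were tested among 4152 genes with a mean of at least 10 normalised counts. The WT group held 3 libraries of non-transgenic littermates, and the 5xFAD group held 3 libraries of hemizygous 5xFAD mice, all male C57BL/6J mice aged 6 months. The 5xFAD strain carries mutant human transgenes driven by the Thy1 promoter, which is mainly active in neurons and deposits amyloid in the brain. Each library was made from cells of 10 pooled mice, sorted as DAPI-negative, CD45-negative, CD31-positive and podoplanin-positive singlets, and its RNA was amplified linearly. The comparison asks how gene expression in these cells differs between 5xFAD mice and their littermates.

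Membrane traffic moves cargo between compartments in coated or uncoated carriers. Coats (COPII at the endoplasmic reticulum, COPI at the Golgi, clathrin with its adaptor complexes at the Golgi, endosomes and plasma membrane) select cargo and bend the membrane, Rab GTPases mark each compartment, tethers such as the exocyst capture the carrier, and SNARE proteins fuse it. Endothelial cells are known for their many caveolae, flask-shaped pits of the plasma membrane built by caveolins and cavins, and lymphatic endothelial cells take up and pass on fluid and macromolecules.

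The libraries held between 7960827 and 13255050 recovered reads in the listed genes, of which the 78 genes took 1.18% to 1.39% in WT and 1.15% to 1.71% in 5xFAD. All 8 lymphatic markers on the marker list were present, with summed levels of 236762 to 278135 normalised counts in WT and 215844 to 334276 in 5xFAD. The lymphatic regulator Prox1 averaged 20711 ± 5025 in WT against 26064 ± 10883 in 5xFAD (SD; n = 3 in each), and the log2 differences of Flt4, Lyve1, Pdpn and Pecam1 were 0.12, -0.25, -0.07 and -0.07. Of other cell types, 6 of 8 blood endothelial markers were listed (summed levels 15961 to 27671 in WT and 21836 to 27162 in 5xFAD), 5 of 8 fibroblast markers (30571 to 64098 and 34274 to 35850), 2 of 8 mural markers (1003 to 1517 and 1257 to 4015), 1 of 9 leukocyte markers (Mrc1, 8243 to 11829 and 8105 to 11310), and 1 of 7 erythroid and platelet markers (Hbb-bt, 1362 to 2211 and 242 to 3526). None of these markers was at 0 in any library. A single listed marker, such as Mrc1, does not show that its cell type was present. The gene filter of the deposited table is not stated, so a marker that was not listed may still have been expressed. The part of other cell types in the results below was not tested. The 5xFAD libraries had more listed genes without any read, 86 to 147 against 25 to 42 in WT.

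Most vesicle traffic genes did not pass the test: 3 of the 78 fell in 5xFAD and 0 rose (limma, adjusted p under 0.05). The 3 were Stx6 and Stx11, which encode SNARE proteins, and Vps9d1, whose product has a domain known from exchange factors of Rab5. Over all tested genes 186 fell, or 4.48%, and 78 rose, or 1.88%, so 6.36% were called, against 3.85% of the vesicle traffic genes. The share called among these genes was therefore near the background, and nothing particular to the group is read from it. The role groups below hold at most 13 genes each. At 6.36% called over all genes, a count of 0 passing is not read as a result about a role group. Quantile normalization moved the calls over all genes to 120 higher and 160 lower. In bulk samples, fewer cells of a type and less RNA per cell cannot be told apart.

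The signs of the fold changes were evenly split. A positive log2 fold change (5xFAD over WT) was found for 39 of the 78 genes and a negative one for 39, and the median was -0.04 against -0.02 over all tested genes. The middle part of the genes, from the lower to the upper quartile, lay between -1.04 and 0.87, against -0.85 and 0.74 over all tested genes. At an unadjusted limma p under 0.05 there were 15 genes, or 19.2%, against 16.3% of all tested genes. Of the 15, 11 were lower (background 9.61%) and 4 higher (background 6.7%). The 2 genotypes did not overlap for 16 of the 78 genes, or 20.5%, against 18.1% of all tested genes. In 5xFAD, 11 lay below WT (background 10.1%) and 5 above it (background 7.97%).

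**Figure D1:**
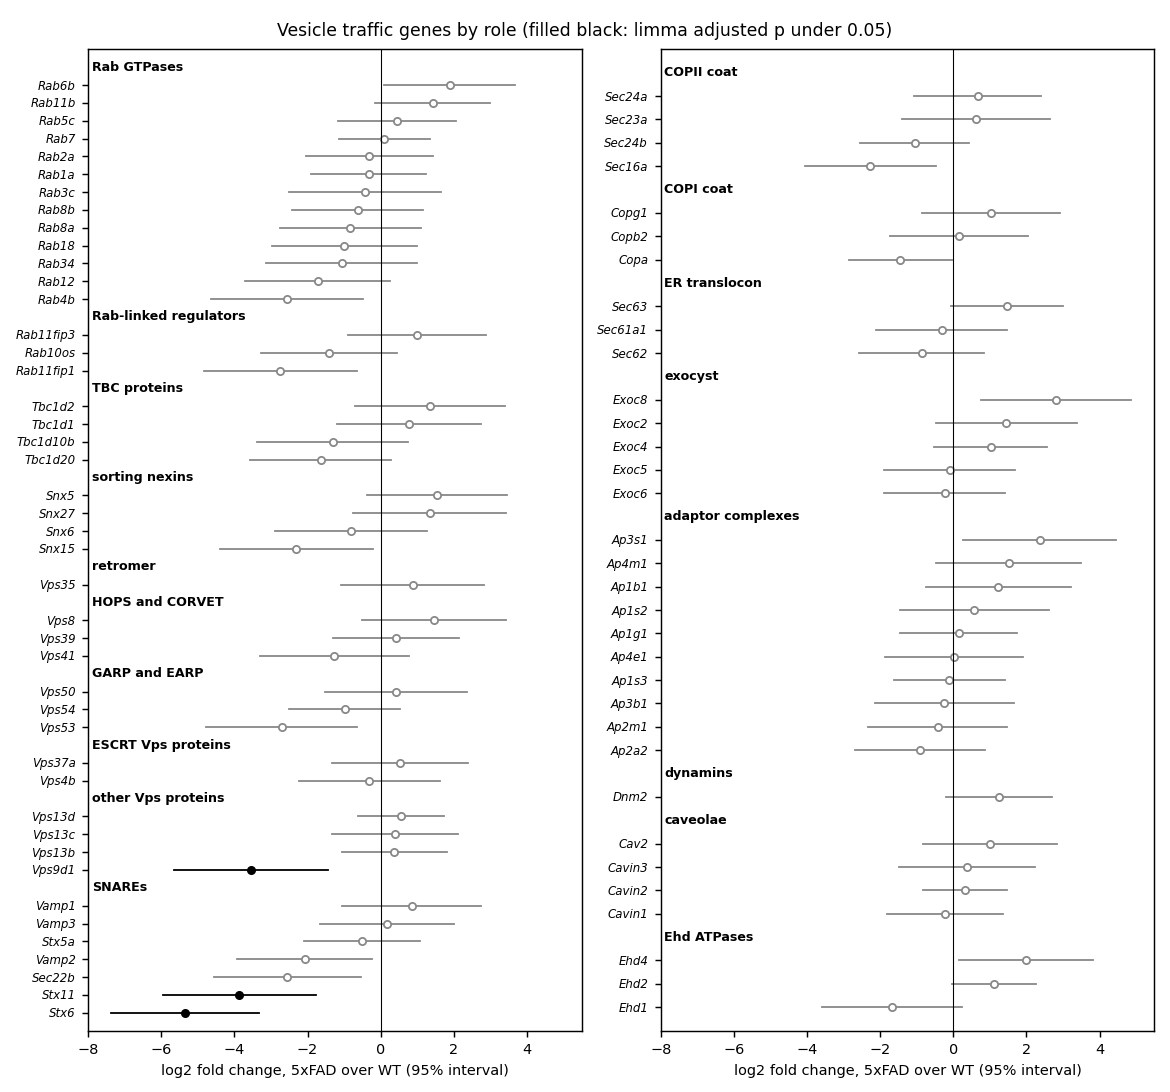
Log2 fold change (5xFAD over WT) with its 95% limma interval for 77 of the 78 genes, grouped by role; filled black points passed the test. The 3 filled points are Stx6, Stx11 and Vps9d1, and 39 points lie above 0 and 38 below.

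Replicates varied widely, and this bears on every value. Between the highest and the lowest library of a genotype, the vesicle traffic genes differed by a median of 3.23-fold in WT and 4.62-fold in 5xFAD (3.57-fold and 4.05-fold over all tested genes). The table itself is limited in this respect: the SD of log2 reads within a genotype reached 2 for 0 of the 4233 listed genes, and its highest values among the vesicle traffic genes were 1.94 (Exoc5 in WT) and 1.99 (Vps4b in 5xFAD). A test that takes this limited spread as its error can make too many calls. The library 5xFAD 3 was the highest or the lowest of the 6 for 39 of the 78 genes. It was the highest for 24.4% and the lowest for 25.6%, against 22.4% and 20.4% of all tested genes.

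SNARE proteins sit on carriers and target membranes and pull them together, and 8 of their genes were measured. Of these 8, 2 fell (background 4.48%) and 0 rose (background 1.88%), and 6 had a negative log2 fold change, as did 2103 of the 4152 tested genes. All 5xFAD libraries lay below WT for 4 of the 8 (background 10.1%). At an unadjusted limma p under 0.05, 4 were lower (background 9.61%). Of 7 tested SNARE partner genes outside the symbol rule, 5 had a positive and 2 a negative log2 fold change. With 8 genes and no test of the group, nothing particular to SNARE genes is read from these counts. The promoter sequences of the SNARE genes whose genotypes did not overlap are shown first, as far as the RefSeq table for GRCm38.p6 holds them. They run from 250 bases before to 50 after the annotated start, 5′ to 3′ on the strand of the gene. Capitals mark the motifs searched on both strands: the GC box with the letters GGGCGG, the CCAAT box named for its own letters, the E-box with the letters CACGTG, the cAMP response element with the letters TGACGTCA, and the TATA box with the letters TATAAA.
Stx6, chr1:155158453-155158752, plus strand: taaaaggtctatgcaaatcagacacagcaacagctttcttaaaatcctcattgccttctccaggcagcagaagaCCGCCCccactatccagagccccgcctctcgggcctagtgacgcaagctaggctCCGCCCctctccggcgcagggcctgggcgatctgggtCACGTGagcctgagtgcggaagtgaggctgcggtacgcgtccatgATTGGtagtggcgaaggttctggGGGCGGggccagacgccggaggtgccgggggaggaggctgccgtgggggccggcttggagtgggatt
Stx11, chr10:12964210-12964509, minus strand: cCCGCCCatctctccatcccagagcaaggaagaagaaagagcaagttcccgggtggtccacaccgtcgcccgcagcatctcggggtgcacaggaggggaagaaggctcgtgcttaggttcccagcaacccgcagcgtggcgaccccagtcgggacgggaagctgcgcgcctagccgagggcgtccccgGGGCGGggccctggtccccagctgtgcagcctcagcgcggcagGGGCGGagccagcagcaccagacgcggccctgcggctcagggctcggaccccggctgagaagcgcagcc
Sec22b, chr3:97900977-97901276, plus strand: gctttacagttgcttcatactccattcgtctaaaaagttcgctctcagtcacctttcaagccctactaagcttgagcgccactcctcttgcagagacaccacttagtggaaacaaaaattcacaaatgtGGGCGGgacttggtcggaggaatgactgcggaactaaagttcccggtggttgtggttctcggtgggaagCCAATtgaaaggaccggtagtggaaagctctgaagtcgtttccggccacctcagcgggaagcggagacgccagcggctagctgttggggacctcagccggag

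The Stx6 window held 3 GC boxes, 1 CCAAT box and 1 E-box, the Stx11 window 3 GC boxes, and the Sec22b window 1 GC box and 1 CCAAT box, with no base shared between motifs. The GC box is common: 67.6% of the 68 promoters found for 60 of the 78 genes held it, against 35.7% of the 32851 promoters in the table. The E-box was in 11.8% and 7.15%, the CCAAT box in 41.2% and 37.4%, the TATA box in 5.88% and 13.6%, and the cAMP response element in 1.47% and 1.79%. The promoters in the table were not limited to those of the tested genes. Nothing particular to the vesicle traffic genes is therefore read from these shares. A match of letters is a description and not a binding site.

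Stx6, a SNARE of the trans-Golgi network and early endosomes, was at 33.7, 75.3 and 24.8 normalised counts in WT 1, 2 and 3 and had no read in any 5xFAD library. The WT level rested on 150 reads, so it was among the lowest in the group, and all WT libraries were above all 5xFAD libraries. It was at least 41.4-fold lower in 5xFAD, taking 3 reads over the group as the floor (limma adjusted p = 1.28e-05). The bound fell to 27.1 without WT 2 and to 23.4 without 5xFAD 1, the second only because fewer libraries stood behind the floor. Stx6 lies on chromosome 1 from 155158715 to 155208256 (GRCm38, plus strand).

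Stx11, a syntaxin known for granule release in cytotoxic lymphocytes, was at 86.3, 331 and 1127 normalised counts in WT 1, 2 and 3, and at 41.5, 23.1 and 9.29 in 5xFAD 1, 2 and 3. The genotypes did not overlap, but WT 1 lay close to 5xFAD 1, and WT 3 was far above the other WT libraries. WT averaged 515 ± 544 and 5xFAD 24.6 ± 16.1 (SD; n = 3 in each), a log2 fold change of -3.87 (SE 1.07; limma adjusted p = 0.00722). The call was lost without WT 3 (-2.96; limma adjusted p = 0.163) and without 5xFAD 3 (-3.32; limma adjusted p = 0.0985), and the value was -4.80 without WT 1. Stx11 lies on chromosome 10 from 12938209 to 12964298 (minus strand). CD45-positive cells were sorted away, and the part of any remaining leukocytes in the Stx11 value was not tested.

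Among SNARE genes that did not pass, Vamp2 (synaptobrevin, a SNARE of secretory vesicles) was at 1727, 1861 and 2550 normalised counts in WT and 545, 511 and 391 in 5xFAD. Both genotypes were narrow and well apart, yet the limma adjusted p was 0.21 (log2 fold change -2.08, 95% interval -3.92 to -0.23). Sec22b, a SNARE of traffic between the endoplasmic reticulum and the Golgi, was at 1539, 728 and 674 in WT and 124, 372 and 79.6 in 5xFAD (log2 fold change -2.55; limma adjusted p = 0.128). Both genes passed with DESeq2 on the recovered reads (DESeq2 adjusted p = 0.015 for Vamp2 and 0.0307 for Sec22b). Stx5a, a Golgi syntaxin and the most abundant of the 8 per kb of exon, was at 3845, 2019 and 2896 in WT and 2081, 5584 and 671 in 5xFAD, with overlapping genotypes. Vamp3, a SNARE of recycling endosomes, had a log2 fold change of 0.17, and Vamp1 had 0.85.

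**Figure D2:**
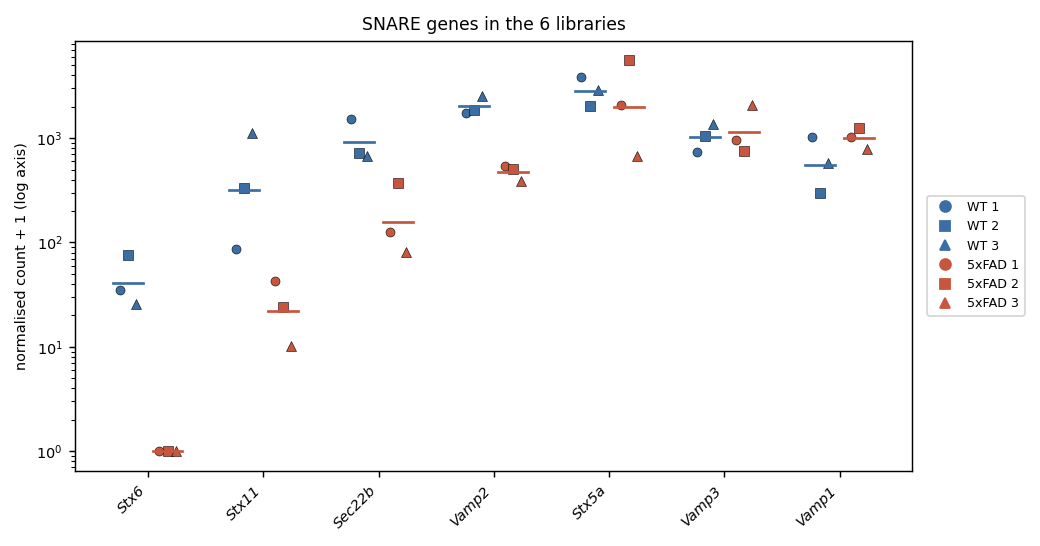
Normalised count + 1 (log axis) of 7 of the 8 SNARE genes in each library, ordered by log2 fold change; bars are means on the log scale. Stx6, Stx11, Sec22b and Vamp2 do not overlap between WT (blue) and 5xFAD (red), and the 3 red Stx6 points lie at a count of 0.

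Rab GTPases switch between an active form on a membrane and an inactive form in the cytosol. Of 13 measured, 0 passed, against 6.36% of all tested genes (limma adjusted p from 0.146 to 0.966). The log2 fold change was positive for 4, against 49.3% of all tested genes, and negative for 9. With 13 genes, nothing particular to Rab genes is read from these counts. Rab7, the Rab of late endosomes, had the second highest level of all 78 genes per kb of exon. It was at 3876, 3389 and 13518 normalised counts in WT and 8122, 4245 and 6368 in 5xFAD, a log2 fold change of 0.10 (95% interval -1.15 to 1.35) whose sign changes with the scaling. Rab5c, of early endosomes, had a log2 fold change of 0.44 (-1.17 to 2.05).

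Rab4b, which marks fast recycling from early endosomes, was the Rab gene with the largest difference, at 268, 474 and 429 in WT and 148, 41.3 and 41.1 in 5xFAD. Every 5xFAD library was below every WT library, and the limma adjusted p was 0.146 (log2 fold change -2.56, 95% interval -4.64 to -0.48). GENCODE places 1280 exon bases of Rab4b also in the readthrough gene Gm21983 on the same strand, so its reads may be split. Rab12 was also below WT in every 5xFAD library (-1.73; limma adjusted p = 0.412). Rab6b, a Golgi Rab, had the largest positive value, 1.89 (limma adjusted p = 0.258), and Rab11b, of recycling endosomes, 1.42. The others were Rab2a (-0.31) and Rab1a (-0.33), which act between the endoplasmic reticulum and the Golgi, Rab3c (-0.43), Rab8b (-0.64) and Rab8a (-0.84), which act in secretion, and Rab34 (-1.07, but -1.67 with edgeR and -1.63 with DESeq2) and Rab18, which had about the same limma value.

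Rab11fip1, which encodes an effector of Rab11 on recycling endosomes, was at 99.4, 94.8 and 63.7 normalised counts in WT and 25.7, 14.6 and 3.98 in 5xFAD. The genotypes were apart at a low level, 295 reads in WT and 46 in 5xFAD, and the gene did not pass (log2 fold change -2.74; limma adjusted p = 0.111). Rab11fip3, another effector of the same family, had 1.00. Rab10os, a noncoding gene antisense to Rab10, was at 378, 1933 and 5090 in WT and 563, 202 and 1693 in 5xFAD. The genotypes overlapped. Rab10os shares 143 of its 6144 exon bases with Rab10 on the other strand. Reads within these shared bases cannot be told from those of Rab10 without strand.

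TBC proteins switch Rabs off, and 0 of 4 passed. Tbc1d20, which acts on Rab1 and Rab18, was at 352, 1052 and 4406 in WT and 547, 624 and 158 in 5xFAD (log2 fold change -1.64; limma adjusted p = 0.429). WT 3 alone was far above the other 5 libraries for this gene. Tbc1d10b had -1.31 (-1.95 with edgeR and -1.89 with DESeq2), Tbc1d1 0.78 and Tbc1d2, the lowest of the 78 genes per kb, 1.34.

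Among genes named for vacuolar protein sorting, Vps9d1 was the 1 of 13 that passed, near the 6.36% called over all tested genes. It was at 413, 146 and 39.8 normalised counts in WT and 5.81, 35.3 and 5.31 in 5xFAD. WT 3 and 5xFAD 2 nearly met, so the genotypes were barely apart. WT averaged 200 ± 192 and 5xFAD 15.5 ± 17.1 (SD; n = 3 in each), a log2 fold change of -3.55 (SE 1.07; limma adjusted p = 0.0181). The call was lost without WT 1 (-2.74; limma adjusted p = 0.194), WT 2 (-3.49; 0.0591), 5xFAD 1 (-3.16; 0.116) or 5xFAD 3 (-3.11; 0.146), and with quantile normalization (-3.10; 0.0521). Without WT 3 the log2 fold change was -4.41 and without 5xFAD 2 it was -4.37. Vps9d1 lies on chromosome 8 from 123242356 to 123254348 (minus strand) and shares 154 exon bases with Zfp276 on the other strand.

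GARP and EARP are tethers that share subunits and receive carriers at the trans-Golgi network and at recycling endosomes. Vps53, a subunit of both, was at 427, 365 and 1054 in WT and 48.1, 97.3 and 121 in 5xFAD. The genotypes were clearly apart, with a log2 fold change of -2.71 (limma adjusted p = 0.109, DESeq2 adjusted p = 0.00387). Vps54, which is particular to GARP, was at 3032, 3335 and 6411 in WT and 1347, 2303 and 2697 in 5xFAD (-0.98; limma adjusted p = 0.604). Its genotypes were also apart, with all 5xFAD libraries below WT. Vps50, which is particular to EARP, had 0.43 with overlapping genotypes. The subunits of this tether family therefore had values on both sides of 0, and 0 of 3 passed limma. Vps53 shares 150 exon bases with Glod4 on the same strand.

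Retromer returns cargo from endosomes, and its core gene Vps35 was at 479, 317 and 409 normalised counts in WT and 236, 383 and 4222 in 5xFAD. A single library, 5xFAD 3, was far above the other 5. The log2 fold change was 0.87 with all libraries (1.93 with edgeR and 2.00 with DESeq2) and -0.40 without 5xFAD 3. HOPS and CORVET tether late and early endosomes. Vps8 (CORVET) was at 432, 123 and 541 in WT and 669, 444 and 1997 in 5xFAD (1.45; limma adjusted p = 0.522), Vps39 at 717, 1800 and 1938 and at 1038, 2345 and 2465 (0.42), and Vps41 had -1.27. Of the ESCRT genes, which sort cargo into multivesicular bodies, Vps37a was at 1178, 1839 and 210 in WT and 2195, 1065 and 581 in 5xFAD, and Vps4b, an ATPase that takes ESCRT apart, had -0.32. The lipid transfer genes Vps13b, Vps13c and Vps13d had 0.37, 0.39 and 0.55. Vps13d had the highest level of the 3 per kb, at 9042, 4917 and 4141 in WT and 9031, 6115 and 10529 in 5xFAD.

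Sorting nexins bind endosomal lipids and shape tubules, and 0 of 4 passed. Snx5 and Snx6 are close relatives that can stand in for each other in dimers with Snx1 or Snx2. Snx5 was at 475, 497 and 331 in WT and 794, 2718 and 882 in 5xFAD. All 5xFAD libraries were above all WT libraries, with a log2 fold change of 1.53 and a limma adjusted p of 0.466. Snx6 had -0.80 and its genotypes overlapped. Snx15 was at 278, 366 and 77.8 in WT and 10.8, 57.1 and 96.9 in 5xFAD (-2.30; limma adjusted p = 0.229), and Snx27, which retrieves receptors with retromer, had 1.34. Snx5 shares 206 exon bases with Mgme1 on the other strand.

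COPII coats carry new proteins out of the endoplasmic reticulum, and 0 of 4 genes passed. Sec16a, which organizes the exit sites, was at 5149, 3217 and 1234 in WT and 141, 856 and 1510 in 5xFAD (log2 fold change -2.27; limma adjusted p = 0.128). The genotypes overlapped through WT 3 and 5xFAD 3, and the value ran from -1.27 without 5xFAD 1 to -2.97 without 5xFAD 3. Sec24b, a cargo-binding subunit, was at 4693, 4251 and 4262 in WT and 844, 2682 and 4230 in 5xFAD. The WT libraries were nearly equal while 5xFAD ranged from far below to the same level (-1.05; limma adjusted p = 0.556). Sec24a had 0.67 and Sec23a 0.62.

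COPI returns proteins to the endoplasmic reticulum, and 0 of 3 genes passed. Copa was at 7232, 6835 and 4905 in WT and 2510, 5180 and 913 in 5xFAD (log2 fold change -1.45; limma adjusted p = 0.282), overlapping by 5xFAD 2 alone. Copb2 had 0.15 and Copg1 1.03. Of the translocon genes, which thread new proteins into the endoplasmic reticulum, Sec63 was at 1418, 2607 and 1261 in WT and 12056, 3701 and 2208 in 5xFAD (1.47; limma adjusted p = 0.336). Sec62 had -0.86. Sec61a1, the channel, had -0.32 with limma but 0.42 with edgeR and 0.48 with DESeq2, so its sign depends on the test. Copa shares 195 exon bases with Ncstn on the other strand.

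The exocyst tethers secretory carriers at the plasma membrane. Exoc8 was at 87.1, 96.7 and 73.4 normalised counts in WT and 226, 2284 and 423 in 5xFAD. The WT libraries were close together and every 5xFAD library was above them. The log2 fold change was 2.81 (95% interval 0.75 to 4.86), the largest positive value of the 78 genes. It missed the threshold with limma (adjusted p = 0.0899) and passed with edgeR (adjusted p = 0.0311) and DESeq2 (adjusted p = 0.00134), and was 1.85 without 5xFAD 2 (limma adjusted p = 0.456). The other subunits did not pass: Exoc4 had 1.02 and Exoc6 -0.24. Exoc2 had 1.45 with limma, 0.82 with edgeR and 0.87 with DESeq2, and Exoc5 had -0.10, -1.02 and -0.97. Exoc6, the most abundant of them per kb, was at 862, 2936 and 3537 in WT and 1046, 1194 and 4377 in 5xFAD.

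Adaptor complexes link cargo to clathrin or other scaffolds, and 0 of 10 genes passed. Ap3s1, a subunit of the adaptor that serves lysosomes and related organelles, was at 32.9, 36.3 and 29.2 in WT and 280, 355 and 50.4 in 5xFAD. All 5xFAD libraries were above WT, 5xFAD 3 only slightly (log2 fold change 2.36; limma adjusted p = 0.211, DESeq2 adjusted p = 0.0103). The value was 1.84 without 5xFAD 2 (limma adjusted p = 0.472) and 3.23 without 5xFAD 3. Ap1s3, the most abundant per kb, was at 3676, 2078 and 3314 in WT and 3596, 1561 and 3574 in 5xFAD, with a difference of -0.11 (95% interval -1.63 to 1.41). The genes of the endocytic adaptor, Ap2a2 and Ap2m1, had -0.92 and -0.43. The remaining adaptor genes were Ap1b1 (1.23), Ap1s2 (0.58), Ap3b1 (-0.25) and Ap4m1 (1.52), and 2 whose sign depends on the test. Ap1g1 had 0.14 with limma, -0.25 with edgeR and -0.21 with DESeq2, and Ap4e1 had 0.021, -0.27 and -0.23.

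Caveola genes were among the most abundant members, and 0 of 4 passed. Cavin2, a coat protein of caveolae, had the highest level per kb of exon of all 78 genes. It was at 7196, 4885 and 9346 normalised counts in WT and 7154, 5636 and 15651 in 5xFAD (log2 fold change 0.31, 95% interval -0.83 to 1.46; limma adjusted p = 0.878). Cavin1, which is needed to form caveolae, was at 3203, 3664 and 1385 in WT and 5526, 2204 and 820 in 5xFAD (-0.23, -1.82 to 1.35). Cavin3 was at 272, 817 and 2486 in WT and 2610, 954 and 490 in 5xFAD (0.38, -1.48 to 2.24). For these 3 genes the genotypes overlapped, and leaving out some single libraries turned the sign. Cav2, a caveolin, was at 768, 998 and 581 in WT and 2205, 2932 and 553 in 5xFAD, so 2 libraries were above WT and 1 was below it (1.00; limma adjusted p = 0.684).

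Ehd ATPases remodel membranes of the endocytic path. Ehd2, which sits at the neck of caveolae, was at 9723, 2895 and 4632 in WT and 8462, 4824 and 32124 in 5xFAD (log2 fold change 1.11; limma adjusted p = 0.336), and its value without 5xFAD 3 was 0.33. Ehd4 was at 187, 809 and 865 in WT and 1991, 1597 and 2598 in 5xFAD. All 5xFAD libraries were above WT, with a log2 fold change of 1.99 (95% interval 0.15 to 3.83; limma adjusted p = 0.24), and it was 1.27 without WT 1. Ehd1, which drives exit from recycling endosomes, was at 2193, 2247 and 445 in WT and 338, 965 and 206 in 5xFAD (-1.67; limma adjusted p = 0.41). The 3 genes thus had values of both signs, and 0 of 3 passed. Dnm2, the dynamin that cuts vesicles from the membrane, was at 3036, 5012 and 731 in WT and 1907, 3297 and 23665 in 5xFAD. As for Ehd2, the library 5xFAD 3 stood far above the rest, and the log2 fold change of 1.25 (limma adjusted p = 0.419) was 0.17 without it.

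**Figure D3:**
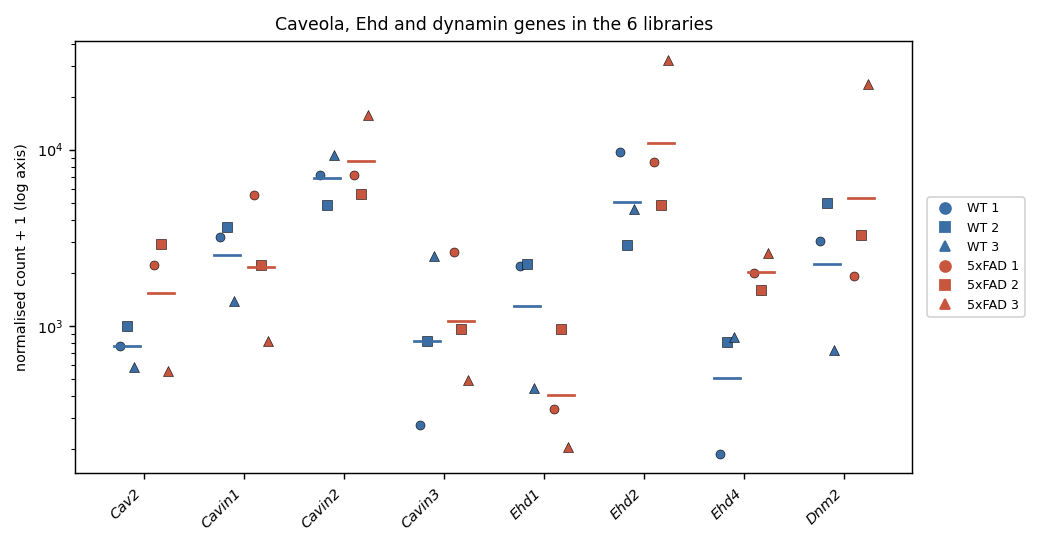
Normalised count + 1 (log axis) of the caveola, Ehd and dynamin genes in each library; bars are means on the log scale. Only Ehd4 is apart between WT (blue) and 5xFAD (red), and the highest points of Ehd2 and Dnm2 are both 5xFAD 3.

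Levels per kb of annotated exon had a median of 191 normalised counts over the 78 genes, against 152 over the 3672 tested genes with a length. Above 1000 per kb were 6 genes, in the order Cavin2 (2721), Rab7 (2524), Ehd2 (2040), Dnm2 (1177), Rab5c (1088) and Ap1s3 (1031). The ranges of neighbours in this order overlapped, so the order among them is not fixed by these libraries. Below 10 per kb were Rab11fip1 (4.66), Stx6 (2.10) and Tbc1d2 (1.96). Stx6, the gene with the lowest limma adjusted p of the 78, was thus also one of the 3 with the lowest level. The 78 genes lay on 20 chromosomes, at most 9 on 1 chromosome (chromosome 11), and their median exon length was 5267 bases against 6007 over all tested genes.

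**Figure D4:**
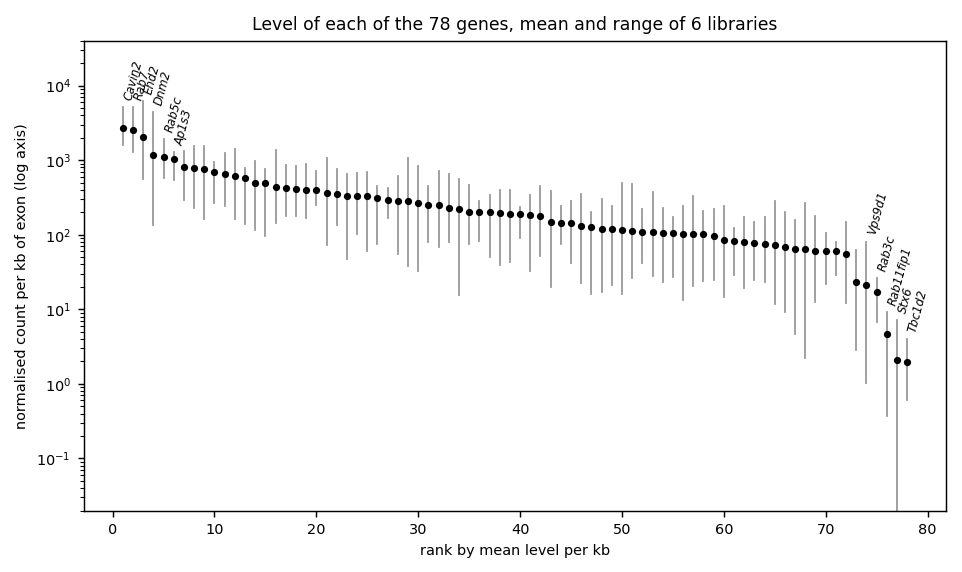
Mean level per kb of exon (points, log axis) of each of the 78 genes in order of rank, with the range over the 6 libraries as lines; the Stx6 line runs to 0 and is drawn to the lower edge of the axis. Names mark the 6 highest and 5 lowest genes, and neighbouring ranges overlap.

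Vesicle traffic genes outside the symbol rule were taken from 7 lists of clathrin proteins, SNARE partners, tethers, ARF and SAR GTPases, Rab regulators, endosomal sorting and cargo receptors. Of their 292 symbols 92 were tested, and 4 fell and 1 rose (limma), 5.43% against 6.36% of all tested genes. Both Rabgef1, which activates Rab5, and Rabep2, a binding partner in the same process, fell. Rabgef1 was at 51.8, 86.5 and 68.1 normalised counts in WT and had no read in 5xFAD (at least 63.8-fold lower; limma adjusted p = 4.04e-07). Without 5xFAD 1, which held none of its reads, that bound was 36.1. Rabep2 was at 193, 583 and 718 in WT and 9.12, 3.65 and 0 in 5xFAD (log2 fold change -6.91; limma adjusted p = 1.22e-08). These had the lowest limma adjusted p among the traffic genes, and neither call was lost with any library left out. Rabgef1 had no read in 5xFAD, and Rabep2 was below the minimum mean of 10 in each 5xFAD library. Both genes therefore entered the test through their WT levels alone. The settings reuse the same libraries, so these kept calls are no separate support. The Rabep2 value was -7.65 without 5xFAD 1 and -5.98 without 5xFAD 3.

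Hps6, a subunit of a complex that builds lysosome-related organelles, had 89 reads in the WT libraries and only 2 in the 5xFAD libraries, which makes it 36.2-fold lower (95% counting interval 9.72 to 303; limma adjusted p = 0.00177). It was at least 13.7-fold lower without 5xFAD 1, and its call was lost with quantile normalization (limma adjusted p = 0.0521). With only 2 reads in 5xFAD, Hps6 also entered the test through its WT level alone. Cyth3, an ARF exchange factor, was at 1517, 750 and 5393 in WT and 251, 212 and 103 in 5xFAD (log2 fold change -3.37; limma adjusted p = 0.0151). Its call was lost without WT 1 (limma adjusted p = 0.0537), WT 3 (-2.59; 0.236) or 5xFAD 3 (-2.98; 0.0828), and the value was -4.01 without WT 2. Git1, an ARF GTPase-activating protein, was the 1 gene that rose, at 617, 3966 and 473 in WT and 4957, 3354 and 14980 in 5xFAD (2.58; limma adjusted p = 0.0216). WT 2 lay above 5xFAD 2, so the genotypes overlapped. The Git1 call was lost without WT 1 (2.20; limma adjusted p = 0.136), WT 3 (2.01; 0.169) or 5xFAD 3 (1.96; 0.278), with DESeq2 (adjusted p = 0.119), with edgeR (adjusted p = 0.054) and without the trend in the prior (limma adjusted p = 0.12), and the value was 3.54 without WT 2. Of the clathrin chains, Cltc, the heavy chain, was at 5331, 7313 and 2694 in WT and 2486, 5267 and 5968 in 5xFAD (-0.14; limma adjusted p = 0.956), and Clta, a light chain, at 424, 120 and 815 and at 168, 337 and 390 (-0.30).

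The number of calls among the 78 genes depended on the test. With edgeR on the recovered reads, 3 genes were lower (background 4.12%) and 1, Exoc8, was higher (background 1.93%), 5.13% in all against 6.05% of all tested genes. DESeq2 gave 8 lower (background 6.36%) and 2 higher (background 3.93%), 12.8% in all against 10.3%, and gave no adjusted p for Sec61a1 and Vps35. The 10 genes were Stx6, Stx11, Vps9d1, Vps53, Sec22b, Vamp2, Rab4b, Rab11fip1, Exoc8 and Ap3s1. Between limma and these tests 5 of the 78 genes turned sign (Ap1g1, Ap4e1, Cavin1, Rab7 and Sec61a1). Among the 78, 33 genes given with values in every library did not pass limma. Of these 33, 25 moved by over 1.5-fold when some single library was left out. Without 5xFAD 3 only Stx6 was called by limma. Stx6 kept its call in each of the 14 alternative settings that tested it, Stx11 in 13 of 15 and Vps9d1 in 10 of 15. Stx6 entered the test through its WT level alone, and the settings reuse the same libraries. Its kept calls are therefore no separate support.

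**Figure D5:**
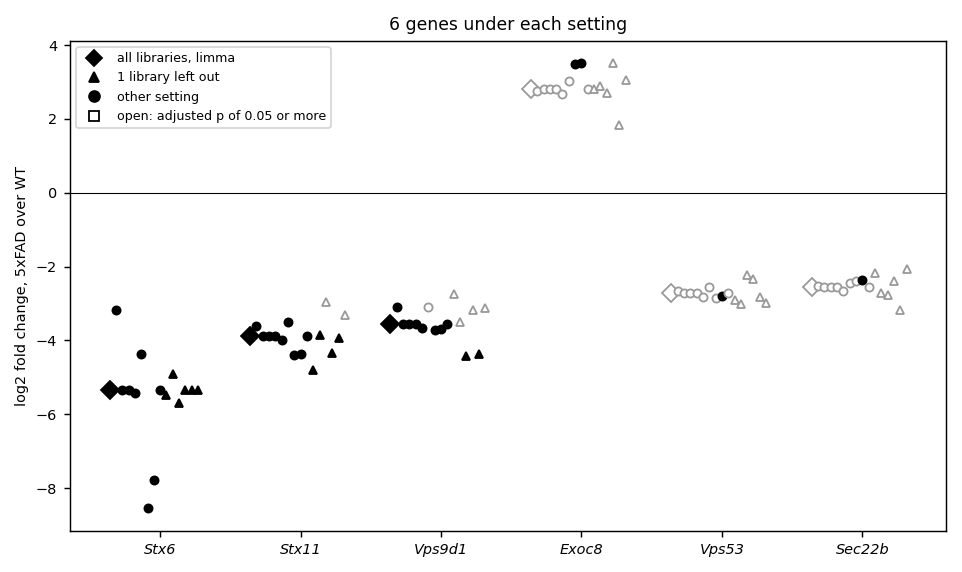
Log2 fold change (5xFAD over WT) of 6 genes with all libraries and limma (diamond), with 1 library left out (triangles) and under other settings (circles); filled symbols passed an adjusted p of 0.05 and open ones did not. Every Stx6 symbol is filled, those of Stx11 and Vps9d1 are mixed, and no symbol crosses 0.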

How the data were processed

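RNA-seq was analysed in 6 libraries, 3 WT and 3 5xFAD, named by title. The authors deposited a normalized signal per gene: whole reads scaled by a size factor for each library. Per the submitters' processing notes, the tools were Trimmomatic, FastQC, Salmon and DESeq2 and the build mm10; strand and gene filters are not given in the sources used here. Every value was a whole multiple of its column's smallest value above 0 (100%, within 1e-06), so whole reads were recovered; such intervals hold counting error alone. Genes with a mean of at least 10 were tested (4152 of 4233) on log2(value + 1), which understates changes of low genes, with limma 3.58.1 in R 4.3.3 (prior variance following the mean, Benjamini-Hochberg adjustment, two-sided, 5xFAD minus WT). Since limma estimated infinite prior degrees of freedom, the error came from the shared trend and not from each gene's own spread. Exon lengths and positions came from the GENCODE annotation of GRCm38. The members and lists were chosen with earlier results of these data known. Genes given with values in every library were those called, the caveola, Ehd and dynamin genes, the most abundant and the most different gene of each role, and those with genotypes apart and an unadjusted p under 0.05; called list genes and clathrin chains were added. Alternatives changed the pseudocount, filter, prior and scaling, used edgeR 4.0.16 or DESeq2 1.42.0 on recovered reads, added a replicate block and left out each library. Values of 1 member and 1 marker list are not reported here. The scripts were tested on simulated data.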

Additional observations from a re-analysis of the deposited data

How the results depend on the processing

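Over all tested genes, 78 higher and 186 lower became 49 and 116 at a minimum mean of 50, where fewer genes were tested, and the higher ones became 120 after quantile normalization and 163 under DESeq2. For edgeR, DESeq2, the prior and quantile normalization, the cause was not tested. For the vesicle traffic genes, 0 higher became 1 with edgeR and 2 with DESeq2, 3 lower became 8 with DESeq2 and 1 to 3 with single libraries left out, and Stx6, Rabgef1 and Hps6 were not tested at a minimum mean of 50, nor Hps6 without WT 1. For the companion lists, 1 higher became 0 without the trend in the prior, 4 with DESeq2 and 0 to 2 with single libraries left out, and 4 lower became 2 at that minimum, 8 with DESeq2 and 2 to 5 with single libraries left out. With the replicate block there were 0 higher and 3 lower vesicle traffic genes, 2 higher and 4 lower companion genes, and 80 and 190 over all genes; deviations of same-numbered pairs had correlations of 0.00247, -0.0157 and -0.0126, and for 0 of 6 libraries was the best match its own number. Equal totals shifted the median over all genes from -0.02 to -0.14 (log2). Of the 41 genes followed, 10 changed sign under at least 1 alternative, and 0 of the 8 called ones did. Cavin1 was at 0.019 with edgeR and 0.050 with DESeq2, and Rab7 at -0.019 scaled to the same total, -0.19 with edgeR and -0.15 with DESeq2. With single libraries left out, values ran from -0.36 to 0.29 for Ap1s3, -0.91 to 0.46 for Cavin1, -0.12 to 0.62 for Cavin2, -0.42 to 1.18 for Cavin3, -0.89 to 0.15 for Exoc6, -0.26 to 0.74 for Rab7, -1.25 to 0.27 for Stx5a, -0.40 to 1.68 for Vps35, -0.41 to 1.15 for Vps37a and -0.040 to 0.82 for Vps39. Low read numbers limit Stx6, Rab11fip1, Hps6 and Rabgef1.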
